A study of Mus musculus with 2 samples.

Results

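The *Tcl1* cluster is a group of 6 neighbouring mouse genes, *Tcl1* and its relatives *Tcl1b1*, *Tcl1b2*, *Tcl1b3*, *Tcl1b4* and *Tcl1b5*. The genes were taken by name from the table of all genes, and all 6 were present among its 18467 genes. They were compared between 1 library of oocytes from mice with Cre recombinase under the *Gdf9* promoter and loxP-flanked *Kat8* alleles, called cKO, and 1 library of wild type (WT) oocytes. Both libraries came from mice of the C57BL/6 strain at 2 weeks of age. *Gdf9*-Cre acts in oocytes of primordial and later follicles, and KAT8 (MOF) is an acetyltransferase of lysine 16 of histone H4. The sources used here state neither how many animals or oocytes entered a library nor whether the WT mice carried the loxP-flanked alleles. With 1 library per group no difference has a replicate check, so the values carry no error and no test was made.

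TCL1 is a small protein that binds the pleckstrin homology domain of the kinase AKT and raises its activity. AKT lies downstream of phosphoinositide 3-kinase (PI3K), and in oocytes this pathway acts, through the FOXO3 transcription factor, on the entry of primordial follicles into growth. *Tcl1* transcripts are known from oocytes and early embryos, and mouse embryos of mothers without *Tcl1* are known to cleave poorly. The *Tcl1b* genes are an expanded set of relatives in the mouse. Human TCL1B and MTCP1, a family member encoded outside the cluster, are also known to bind AKT.

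The 6 genes lie within 75.7 kb of chromosome 12 in the mm10 build. In chromosome order they are *Tcl1b2* (gene ID 27381; 105147032 to 105155225), *Tcl1b1* (27379; 105159703 to 105166625), *Tcl1b5* (27382; 105176357 to 105181145), *Tcl1b3* (27378; 105191044 to 105195399), *Tcl1b4* (27380; 105202421 to 105206993) and *Tcl1* (21432; 105216754 to 105222737). The *Tcl1b* genes are on the plus strand and *Tcl1* is on the minus strand. No other gene of the table lay between them, and no other gene annotated in GENCODE M21 overlapped any of them. The first listed transcript of each gene has 4 exons, of which 3 are coding, and a coding sequence of 348 to 366 bases without the stop codon.

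How alike the members are bears on every value below, because reads from identical stretches cannot be placed in 1 gene. The first 90 coding bases of each gene, all in its first coding exon, are shown to make this visible. They were read from the GENCODE M21 transcripts (build GRCm38, which mm10 also denotes), and capitals mark bases of a *Tcl1b* gene that do not match *Tcl1b2* in the alignment of their coding sequences. *Tcl1* is given without capitals since it was not set against *Tcl1b2* base by base.
*Tcl1*, chr12:105222563-105222652, minus strand: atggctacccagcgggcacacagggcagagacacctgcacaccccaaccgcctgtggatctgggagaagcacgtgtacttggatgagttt
*Tcl1b2*, chr12:105147090-105147179, plus strand: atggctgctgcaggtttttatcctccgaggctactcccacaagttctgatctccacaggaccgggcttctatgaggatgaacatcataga
*Tcl1b1*, chr12:105159761-105159850, plus strand: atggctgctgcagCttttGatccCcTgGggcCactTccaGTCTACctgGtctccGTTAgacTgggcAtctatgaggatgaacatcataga
*Tcl1b5*, chr12:105176415-105176504, plus strand: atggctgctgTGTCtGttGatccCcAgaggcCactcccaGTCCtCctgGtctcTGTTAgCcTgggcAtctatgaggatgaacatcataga
*Tcl1b3*, chr12:105191101-105191190, plus strand: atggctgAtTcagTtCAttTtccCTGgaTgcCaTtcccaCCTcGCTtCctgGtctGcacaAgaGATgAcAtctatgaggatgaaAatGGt
*Tcl1b4*, chr12:105202479-105202568, plus strand: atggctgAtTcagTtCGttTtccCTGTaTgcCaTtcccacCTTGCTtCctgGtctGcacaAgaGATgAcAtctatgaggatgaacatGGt
In these stretches 20 bases of *Tcl1b1*, 23 of *Tcl1b5*, 30 of *Tcl1b3* and 30 of *Tcl1b4* differed from *Tcl1b2*. Over the whole coding sequence, the 10 pairs of *Tcl1b* genes were 71.2% to 86.2% identical, with *Tcl1b3* and *Tcl1b5* the closest pair. The 5 pairs of *Tcl1* with a *Tcl1b* gene were 49.5% to 51.3% identical. Over whole transcripts the *Tcl1b* pairs reached 82.0% to 91.2% identity.

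The share of a transcript that also occurs elsewhere in the cluster differed widely between members. Of the 50-base windows of the *Tcl1* transcript, 0% occurred in another member, even with up to 2 mismatches. For the *Tcl1b* transcripts the share of windows found without mismatch in another member was 34.1% in *Tcl1b3*, 31.4% in *Tcl1b2*, 20.8% in *Tcl1b5*, 13.02% in *Tcl1b1* and 4.28% in *Tcl1b4*. With up to 2 mismatches allowed it was 73.6% in *Tcl1b3*, 62.9% in *Tcl1b5*, 56.7% in *Tcl1b2*, 39.4% in *Tcl1b1* and 32.6% in *Tcl1b4*. With exact windows of 100 bases, the share was at most 9.23%, in *Tcl1b2*. Among 141767 transcripts searched, 0 of the members' 50-base windows occurred in a gene outside the cluster. Thus the *Tcl1* value does not share exact 50-base windows with its neighbours, whereas the split of reads between *Tcl1b* genes is uncertain. Neither the labels nor the files state the read length or how reads with several matches were treated.

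**Figure D1:**
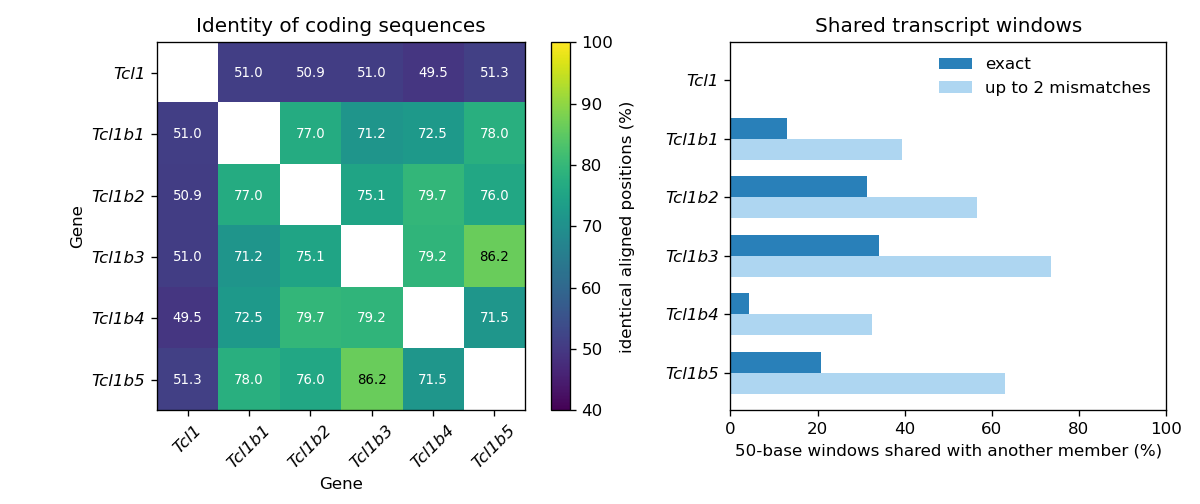
Left, identical positions in pairwise alignments of the coding sequences, in percent. Right, the share of each transcript's 50-base windows that also occur in another member, exactly or with up to 2 mismatches; *Tcl1* stands at 0% and *Tcl1b3* highest, at 34.1% and 73.6%.

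The *Tcl1b* genes also share sequence before their starts. The stretches below, from RefSeq (GRCm38.p6), are shown because each holds 2 matches to an E-box motif at a fixed distance; the basic helix-loop-helix factor FIGLA acts through E-boxes in the zona pellucida genes of oocytes. Capitals mark CACCTG and CAGGTG, which are the same motif read on opposite strands.
*Tcl1b2*, chr12:105146940-105146989, plus strand: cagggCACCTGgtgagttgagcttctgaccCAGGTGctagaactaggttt
*Tcl1b1*, chr12:105159611-105159660, plus strand: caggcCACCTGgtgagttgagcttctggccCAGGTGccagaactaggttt
*Tcl1b5*, chr12:105176265-105176314, plus strand: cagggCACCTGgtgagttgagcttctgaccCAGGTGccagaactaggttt
*Tcl1b3*, chr12:105190950-105190999, plus strand: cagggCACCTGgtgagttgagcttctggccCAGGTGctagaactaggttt
In *Tcl1b2* and *Tcl1b5* the first motif begins 74 bases before the annotated start, in *Tcl1b1* 88 and in *Tcl1b3* 90 bases before it. *Tcl1b4* holds the same pair of motifs, the first beginning 61 bases before its start, and *Tcl1* holds 1 motif, 21 bases before its start. Over the windows from 250 bases before to 50 bases after the start, CACCTG or CAGGTG occurred in 6 of 6 members, against 20.2% of 32851 promoters. CACCTG followed after 19 bases by CAGGTG occurred in 5 of 6 members, all *Tcl1b* genes, and in 7 promoters in all (0.0213%). The looser form CANNTG was in 6 of 6 members and in 72.3% of promoters. The homeobox motif TAATTA or TAATTG (or CAATTA, its other strand) was in 0 of 6 members and in 12.4% of promoters, and TATAAA or TTTATA was in 0 of 6 and in 13.6%. These motifs were chosen with the sequences in view, and the *Tcl1b* promoters are alike in sequence and not independent, so the matches are descriptions. *Figla* itself stood at 183 FPKM in the cKO and 161 FPKM in the WT library.

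*Tcl1* was among the most abundant genes of both oocyte libraries and differed little between them, whereas each of the 5 *Tcl1b* genes had a lower value in the cKO library. Values are FPKM, fragments scaled by transcript length and by the mapped total of the library, and levels of different genes are therefore compared per length. *Tcl1* stood at 1987 FPKM in the cKO library, its 25th most abundant gene, and at 1702 FPKM in the WT library, its 44th. The fold of the cKO over the WT value was 1.17. Its log2 ratio, cKO over WT, computed on log2(FPKM + 0.1), was 0.22.

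Among the *Tcl1b* genes *Tcl1b2* had the highest level, at 274 FPKM in the cKO and 516 FPKM in the WT library (log2 ratio -0.91). *Tcl1b1* followed at 189 FPKM in the cKO and 431 FPKM in the WT library, 2.28-fold lower in the cKO (log2 ratio -1.19). *Tcl1b4* stood at 133 FPKM in the cKO and 204 FPKM in the WT library (log2 ratio -0.62). These 3 genes, with *Tcl1*, kept the same order of levels in both libraries.

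The least abundant members, *Tcl1b3* and *Tcl1b5*, exchanged places. *Tcl1b3* stood at 13.5 FPKM in the cKO and 74.9 FPKM in the WT library, 5.54-fold lower in the cKO (log2 ratio -2.46). It ranked 4830th among all genes in the cKO and 1403rd in the WT library. *Tcl1b5* stood at 29.3 FPKM in the cKO and 43.3 FPKM in the WT library (log2 ratio -0.56). *Tcl1b3* was thus below *Tcl1b5* in the cKO library and above it in the WT library. Since this pair is the closest in sequence and reads could have been split between them in either direction, their sum was also taken. It was 42.8 FPKM in the cKO and 118 FPKM in the WT library, a 2.76-fold difference (log2 ratio -1.46). The pair was chosen for this sum after its values were seen. The sum does not settle reads that either gene shares with other members. Exact windows of 100 bases shared with another member made up 9.09% of *Tcl1b3* and 9.23% of the more abundant *Tcl1b2*, but 1.46% of *Tcl1b5*.

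**Figure D2:**
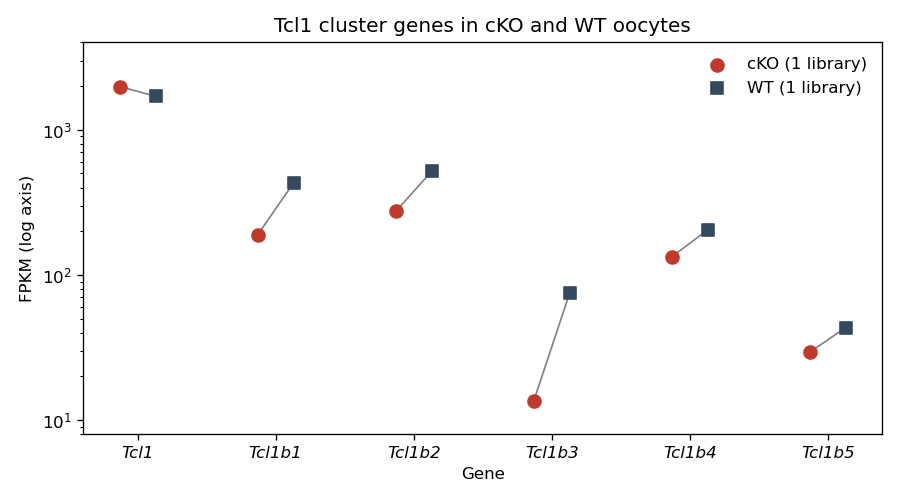
FPKM of the 6 members on a log axis, 1 point per library, with cKO on the left and WT on the right of each pair; lines join the values of a gene. *Tcl1* stands at 1987 FPKM in the cKO and 1702 FPKM in the WT library, and *Tcl1b3* shows the widest gap, at 13.5 FPKM in the cKO and 74.9 FPKM in the WT library.

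By the rule used for all genes, a gene counts as higher or lower when it reaches 1 FPKM in either library and differs at least 2-fold, that is, by a log2 ratio of at least 1 or at most -1. All 6 members reached 1 FPKM. Of them 2 were lower (*Tcl1b1* and *Tcl1b3*), against 12.2% of the 11816 genes that reached 1 FPKM, and 0 were higher, against 18.2%. Where the higher of both values was at least 50 FPKM (2244 genes), a level chosen after the values were seen and reached by 5 of the members, 14.2% were lower and 7.71% higher. The median log2 ratio of the members was -0.77, beside 0.06 for all genes and -0.18 for those at 50 FPKM and above. *Tcl1b1* was short of the 2-fold rule when FPKM were rescaled to the same total in both libraries (TPM; log2 ratio -0.94). It was also short of it with the trend on transcript length and GC content removed (-0.63). *Tcl1b3* stayed past the rule in each scaling tried, at -1.90 to -2.49.

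Summed over the cluster, the 2 libraries were close, and what differed was the makeup of the sum. The 6 genes added up to 2626 FPKM in the cKO and 2971 FPKM in the WT library, a log2 ratio of -0.18, which became 0.07 with TPM. *Tcl1* made up 75.7% of the sum in the cKO and 57.3% in the WT library. The 5 *Tcl1b* genes together came to 639 FPKM in the cKO and 1269 FPKM in the WT library, 1.99-fold lower in the cKO (log2 ratio -0.99; -0.75 with TPM). This sum depends less than single values on how reads were split between near-identical genes. *Tcl1b2* made up 10.4% of the cluster's sum in the cKO and 17.4% in the WT library, and *Tcl1b1* 7.19% in the cKO and 14.5% in the WT library. For *Tcl1b4* the shares were 5.07% in the cKO and 6.87% in the WT library.

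Ratios between genes within a library do not depend on how the libraries were scaled. Per 100 FPKM of *Tcl1* there were 13.8 FPKM of *Tcl1b2* in the cKO and 30.3 in the WT library. *Tcl1b1* stood at 9.51 per 100 in the cKO and 25.3 in the WT library, and *Tcl1b4* at 6.70 in the cKO and 12 in the WT library. For *Tcl1b5* the level was 1.48 per 100 in the cKO and 2.55 in the WT library. *Tcl1b3* stood at 0.680 per 100 in the cKO and 4.40 in the WT library. Relative to *Tcl1*, the log2 ratios of the *Tcl1b* genes ran from -0.79 (*Tcl1b5*) to -2.69 (*Tcl1b3*), so all 5 were lower in the cKO by this measure of within-library level. The transcripts differ in length, the longest being 1398 bases for *Tcl1*, 1465 for *Tcl1b4* and 1040 to 1082 for the other *Tcl1b* genes. With the trend of log2 ratios on transcript length and GC content removed, *Tcl1* was at 0.50, and *Tcl1b2*, *Tcl1b4* and *Tcl1b5* were at -0.39, -0.21 and -0.03.

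**Figure D3:**
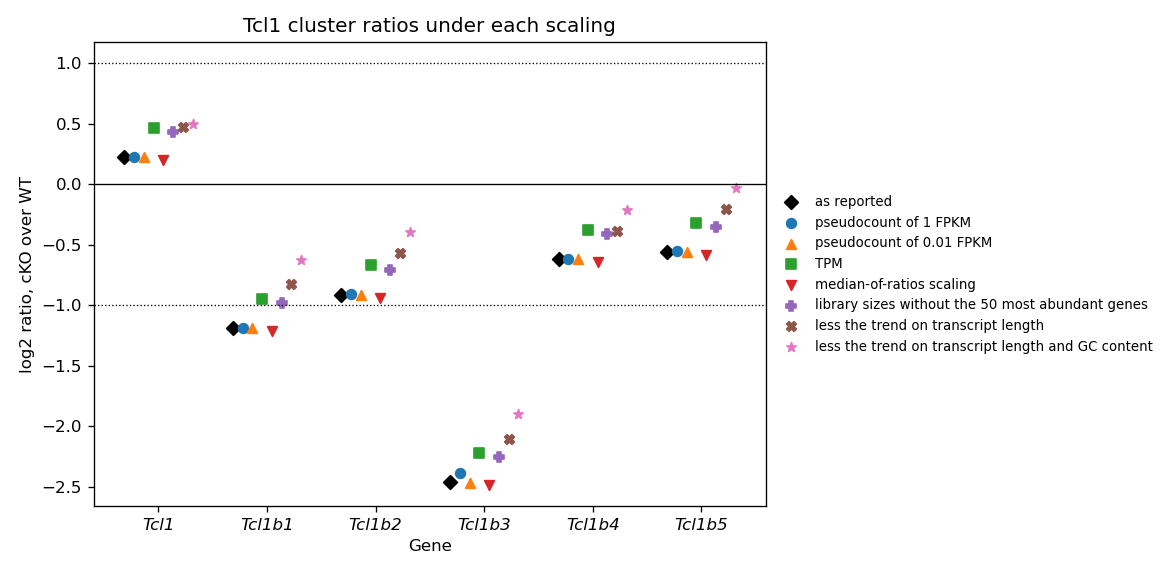
Log2 ratio, cKO over WT, for each member, as reported and under the other pseudocounts, scalings and trend corrections; dotted lines mark the 2-fold rule. *Tcl1* is above 0 and each *Tcl1b* gene below 0 at every point, with *Tcl1b5* nearest to 0, at -0.03 with the length and GC trend removed.

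The authors' deposited table gave *Tcl1b1* and *Tcl1b3* among its genes lower in the cKO and placed no member among its higher genes. *Tcl1*, *Tcl1b2*, *Tcl1b4* and *Tcl1b5* were among neither its higher nor its lower genes, at folds of 1.17, 0.531, 0.652 and 0.677. The fold nearest to 1 was 0.497 among its lower genes and 2.00 among its higher genes. The authors' test is not stated, and a test between 2 libraries compares those libraries and not the genotypes.

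Around the cluster, the number of neighbouring genes past the 2-fold rule depended on the scaling. Of the 10 genes of the table nearest on each side, 12 reached 1 FPKM, of which 1 was higher and 1 was lower (8.33% each), beside 18.2% and 12.2% of all genes. Their log2 ratios were above 0 for 9 of the 12, with a median of 0.45, beside 6281 of 11816 genes and a median of 0.06 over all genes. *Glrx5*, which encodes a mitochondrial glutaredoxin of iron-sulphur cluster assembly and ends 106 kb before *Tcl1b2*, stood at 953 FPKM in the cKO and 637 FPKM in the WT library. *2810011L19Rik*, described in the table as a *Tcl1* upstream neural differentiation associated RNA and lying 114 kb beyond *Tcl1*, was at 0.0244 FPKM in the cKO and listed at 0 in the WT library. The higher gene was *Gsc* (goosecoid, a homeobox transcription factor), 674 kb before the cluster, at 65.9 FPKM in the cKO and 6.25 FPKM in the WT library, 10.5-fold higher. The lower gene was the small RNA *Scarna13*, at 0.459 FPKM in the cKO and 1.39 FPKM in the WT library. It has the same deposited position as *Snhg10*, which stood at 6.87 FPKM in the cKO and 7.43 FPKM in the WT library; the labels and files do not state how reads of the 2 genes were assigned. *Scarna13* was no longer lower with a pseudocount of 1 (log2 ratio -0.71). With TPM, 4 neighbours were higher and 1 was lower, beside 25.6% and 8.38% of all genes.

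**Figure D4:**
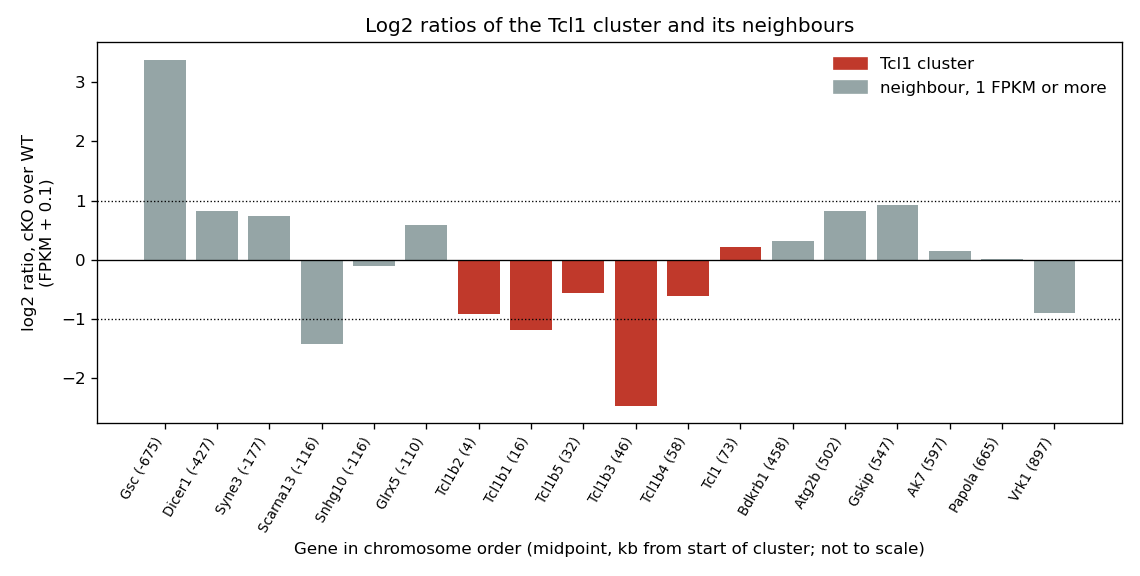
Log2 ratio, cKO over WT, for the cluster and for its neighbours at 1 FPKM or more, in chromosome order, with the midpoint of each gene in kb from the start of *Tcl1b2*; dotted lines mark the 2-fold rule. The 5 *Tcl1b* bars point down between *Glrx5* (0.58) and *Tcl1* (0.22), and *Gsc* stands highest at 3.38.

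*Mtcp1*, the family member on the X chromosome (75404846 to 75416543), was lower in the cKO library, like *Tcl1b1* and *Tcl1b3*. It stood at 25.9 FPKM in the cKO and 85.2 FPKM in the WT library, 3.29-fold lower (log2 ratio -1.72). *Cmc4*, which encodes a small mitochondrial protein, covers the whole deposited position of *Mtcp1* on the same strand and has no row of its own in the table, so the value cannot be assigned to *Mtcp1* alone.

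Of the kinases that TCL1 binds, *Akt1* was lower in the cKO library, at 10.7 FPKM in the cKO and 23.2 FPKM in the WT library (log2 ratio -1.11; -0.87 with TPM, short of the rule). *Akt2* stood at 10.03 FPKM in the cKO and 11.2 FPKM in the WT library (log2 ratio -0.16; 0.08 with TPM). Both kinase genes were thus within 10.03 to 23.2 FPKM in either library, far under the level of *Tcl1*.

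Among the wider set of AKT pathway genes more were higher than lower in the cKO library. Of 43 listed genes, which include both kinases and *Mtcp1*, 40 reached 1 FPKM; 13 were higher, 2 were lower and 25 were neither. Of all genes 18.2% were higher and 12.2% lower. The median log2 ratio of the list was 0.40, beside 0.06 for all genes. Once the dependence on length and GC content was removed, 9 were higher and 2 lower, beside 16.4% and 9.74% of all genes.

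Upstream of AKT, 3 of the 6 listed PI3K subunit genes were higher, beside 18.2% of all genes. The other PI3K subunit genes were *Pik3ca*, *Pik3r1* and *Pik3r3*, which were neither higher nor lower, at 1.00-fold, 1.07-fold and 1.31-fold. The catalytic subunit gene *Pik3cd* stood at 389 FPKM in the cKO and 144 FPKM in the WT library (2.70-fold), *Pik3cb* at 12.3 FPKM in the cKO and 3.51 FPKM in the WT library (3.50-fold), and the regulatory subunit gene *Pik3r2* at 4.49 FPKM in the cKO and 1.46 FPKM in the WT library. With the length and GC trend removed *Pik3cd* and *Pik3r2* were short of the rule, at log2 ratios of 0.88 and 0.80. Of the 4 mTOR complex genes listed, *Mtor*, *Rictor* and *Mapkap1* were neither higher nor lower, at 0.99-fold, 1.03-fold and 0.734-fold. The remaining 1 was higher, beside 18.2% of all genes. It was *Mlst8*, which encodes a subunit of both mTOR complexes, including the one that phosphorylates AKT, and stood at 6.17 FPKM in the cKO and 1.95 FPKM in the WT library. *Appl1*, whose product is an adaptor that binds AKT, stood at 44.6 FPKM in the cKO and 20.7 FPKM in the WT library, and was short of the rule less the length trend (log2 ratio 0.90).

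Some genes whose products oppose AKT were also higher. Of 8 listed phosphatase genes of the pathway 7 reached 1 FPKM, with 3 higher, 0 lower and 4 neither. Among all genes 18.2% were higher and 12.2% lower. *Phlpp1*, a phosphatase of AKT, stood at 2.45 FPKM in the cKO and 0.657 FPKM in the WT library. The lipid phosphatase gene *Inppl1* stood at 5.38 FPKM in the cKO and 1.60 FPKM in the WT library. *Ppp2cb*, a catalytic subunit gene of protein phosphatase PP2A, stood at 13.8 FPKM in the cKO and 3.51 FPKM in the WT library (3.93-fold). The more abundant *Ppp2ca*, also a catalytic subunit gene of PP2A, was neither, at 61.7 FPKM in the cKO and 69.4 FPKM in the WT library. *Trib3*, a pseudokinase gene whose product binds AKT, stood at 3.77 FPKM in the cKO and 1.46 FPKM in the WT library, and was short of the rule with a pseudocount of 1 (log2 ratio 0.95).

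Of 13 listed genes that act downstream of AKT 12 reached 1 FPKM, with 4 higher and 0 lower, beside 18.2% and 12.2% of all genes. The 8 that were neither include *Foxo3*, at 5.93 FPKM in the cKO library and 1.48-fold its WT level, and *Foxo1*, at 82.9 FPKM in the cKO and 62.5 FPKM in the WT library. *Gsk3b* (glycogen synthase kinase) stood at 11.2 FPKM in the cKO and 4.42 FPKM in the WT library. The cell cycle inhibitor gene *Cdkn1b* stood at 9.30 FPKM in the cKO and 3.12 FPKM in the WT library (2.98-fold). *Foxo6* stood at 2.19 FPKM in the cKO and 0.518 FPKM in the WT library, with a log2 ratio of 1.89 that was 0.39 less the length and GC trend. *Tsc1*, whose product is the partner of the AKT substrate TSC2 in a brake on mTOR, stood at 11.8 FPKM in the cKO and 5.10 FPKM in the WT library, and was short of the rule less the length trend (log2 ratio 0.99) and less the length and GC trend (0.83). In the authors' deposited table *Pik3cd* and *Appl1* were listed as higher and *Mtcp1* as lower; the other AKT pathway genes named here were in neither list.

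**Figure D5:**
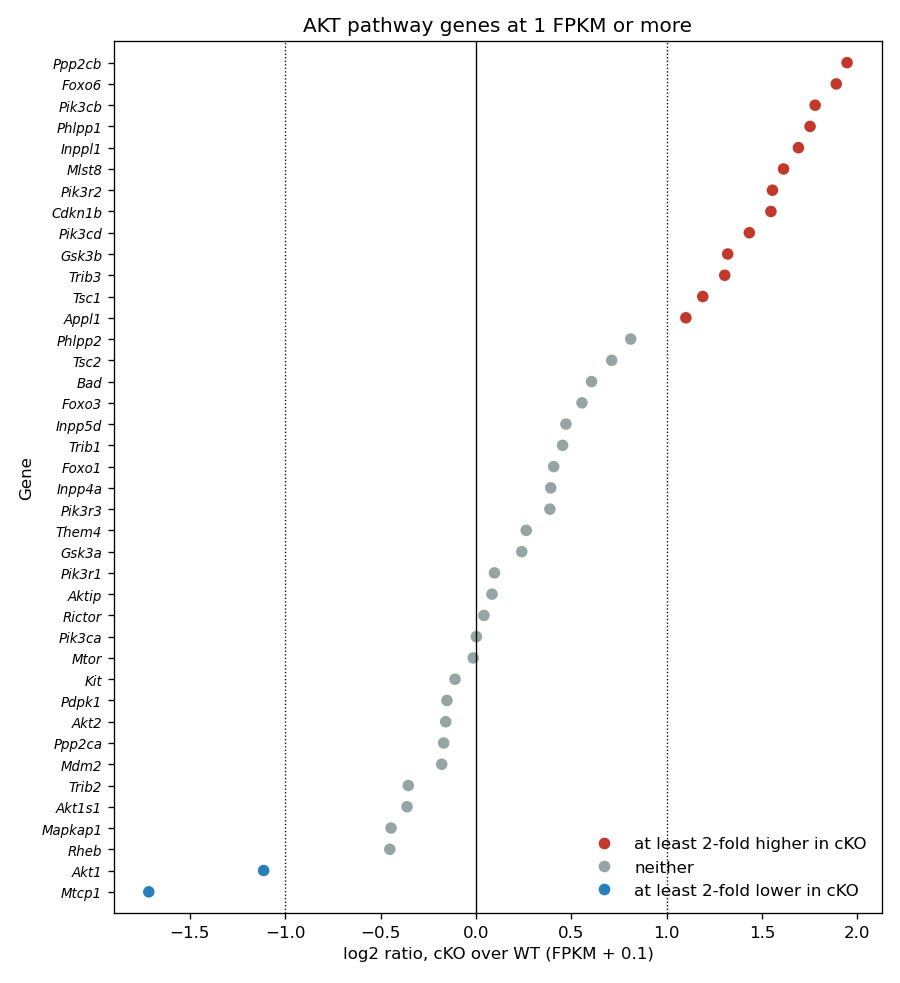
Log2 ratios, cKO over WT, for the 40 AKT pathway genes at 1 FPKM or more, sorted by ratio; dotted lines mark the 2-fold rule. The 13 higher genes run from *Appl1* at 1.10 to *Ppp2cb* at 1.95, and *Akt1* and *Mtcp1* are the 2 lower genes.

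Genes with nearly the same pair of levels were found by distance in log2(FPKM + 0.1) over the 2 libraries. Nearest to *Tcl1* were the predicted gene *Gm15772* (2183 FPKM in the cKO and 1726 FPKM in the WT library), the ribosomal protein gene *Rps26* (2048 FPKM in the cKO and 1520 FPKM in the WT library) and *Tle6*, of the subcortical maternal complex of oocytes (2279 FPKM in the cKO and 1884 FPKM in the WT library). Nearest to *Tcl1b2* were the oocyte homeobox gene *Obox1* (265 FPKM in the cKO and 522 FPKM in the WT library), the RNA polymerase subunit gene *Polr2f* (272 FPKM in the cKO and 540 FPKM in the WT library) and the proteasome subunit gene *Psmb2* (262 FPKM in the cKO and 541 FPKM in the WT library). With 2 libraries such likeness is shared by many genes.

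*Kat8* stood at 0.985 FPKM in the cKO and 166 FPKM in the WT library, so the targeted gene was far lower in the library labelled cKO. All 13 oocyte markers, among them *Zp3* and *Ooep*, exceeded 1 FPKM in both libraries. They summed to 26525 FPKM in the cKO and 28590 FPKM in the WT library. Of the 13 oocyte markers 1 was higher and 1 was lower, beside 18.2% and 12.2% of all genes. The higher one was *Ddx4*, at 57.7 FPKM in the cKO and 19.4 FPKM in the WT library. The lower one was *Dppa3*, at 4524 FPKM in the cKO and 10371 FPKM in the WT library, where it was the most abundant gene. Of 10 granulosa cell markers 9 reached 1 FPKM, with 4 higher (*Foxl2*, *Inhba*, *Kitl* and *Nr5a2*) and 0 lower. Among all genes 18.2% were higher and 12.2% lower. The 10 granulosa cell markers summed to 129 FPKM in the cKO and 111 FPKM in the WT library. *Inha* alone stood at 62.7 FPKM in the cKO and 67.3 FPKM in the WT library. The 9 theca and stroma markers summed to 12.4 FPKM in the cKO and 2.98 FPKM in the WT library. Of these 9, 5 reached 1 FPKM, and 4 of those 5 were higher and 0 lower, beside 18.2% higher among all genes. Of 8 markers of lymphocytes, cells in which human TCL1 is also known, and of other immune cells, 4 were in the table. *Cd68* was at 0.531 FPKM in the cKO and 0.572 FPKM in the WT library. *Ptprc* was at 0.0340 FPKM and *Cd3e* at 0.0460 FPKM in the cKO, and both were listed at 0 in the WT library. *Ms4a1* was at 20.7 FPKM in the cKO and 22.6 FPKM in the WT library. The 5 blood and vessel markers summed to 24.1 FPKM in the cKO and 61.6 FPKM in the WT library. Of these 5, 2 reached 1 FPKM, with 0 higher and 1, *Hba-a1*, lower, beside 18.2% and 12.2% of all genes. *Hba-a1* made up most of the WT sum, at 14.99 FPKM in the cKO and 51.5 FPKM in the WT library. *Pecam1* was neither, at 8.14 FPKM in the cKO and 9.78 FPKM in the WT library. Under 1 FPKM, *Cdh5* was at 0.527 FPKM in the cKO and 0.0361 FPKM in the WT library, and *Alas2* at 0.476 and 0.232. *Hbb-bs* was at 4.88e-04 FPKM in the cKO and 0.00184 FPKM in the WT library. The part of other cells in the differences was not tested, and fewer cells of a type and less RNA per cell cannot be told apart in bulk oocyte RNA.

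No library totals are given, so the number of fragments behind a value is unknown. From the ratios of genes under 0.6 FPKM, a single fragment added 1.24 times more FPKM in the cKO than in the WT library, which makes low cKO values the less precise ones. Of all genes past the 2-fold rule 59.8% were higher, a share that was 75.3% with TPM and 73.4% when the 50 most abundant genes were left out of the library sizes; under these scalings the median over all genes was 0.33 and 0.28.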

How the data were processed

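Total RNA of oocytes was sequenced from 1 cKO and 1 WT library, and reads were aligned with Bowtie 0.12.2 to mm10, per the submitters' processing notes. How fragments were assigned to genes, and the test, are not given in the sources used here. The authors deposited, per the file headers, FPKM for each gene and library, the linear fold change as a ratio, a p-value and a false discovery rate, with 0 written as 1e-05. Dividing the FPKM columns gave the deposited ratio within rounding. The KO column holds the cKO library, and the NC column, by elimination, the WT library. In the files, loci stand under the description header and descriptions under the locus header. 1 line of the table was emptied for this work and is not analysed here.

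Log2 ratios of cKO over WT were computed on log2(FPKM + 0.1), which understates differences of low genes. Transcript length and GC content came from the longest GENCODE M21 transcript of each gene ID (17349 genes); the trends are quadratic. Coding sequences and transcripts were aligned globally with Biopython 1.88, using the transcript GENCODE numbers first. Scaling, calls and trend removal were tested on simulated data. The members and lists were chosen with earlier results of these data known. The genes named are the members, other family members, *Kat8*, *Akt1*, *Akt2*, listed and neighbouring genes past the 2-fold rule, the nearest neighbours, and the 3 genes nearest in level to *Tcl1* and to *Tcl1b2*; *Figla*, *Snhg10*, the markers and the pathway genes short of the rule were named, and the pathway roles grouped, after values were seen. Not every listed pathway gene and marker is reported here. Values were recomputed with other pseudocounts, scalings and floors and without the length and GC trends.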

Additional observations from a re-analysis of the deposited data

How the results depend on the processing

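No paired analysis was possible because each genotype has 1 library. Under other pseudocounts, scalings and trend corrections *Tcl1* kept a log2 ratio above 0 and each *Tcl1b* gene one below 0. *Tcl1b1* was short of the 2-fold rule with TPM (-0.94), with library sizes without the 50 most abundant genes (-0.98), less the length trend (-0.83) and less the length and GC trend (-0.63), which left 1 member lower each time. The log2 ratio of the sum of all 6 members turned to 0.066 with TPM and 0.029 without the 50 most abundant genes, and *Akt2* to 0.083 and 0.046. The sum of the *Tcl1b* genes was -1.01 with median-of-ratios scaling, just past the rule. With TPM, and without the 50 most abundant genes, 1 AKT pathway gene was lower and 4 neighbours were higher. Of all genes 25.6% were then higher and 8.38% lower with TPM. Without the 50 most abundant genes the shares were 23.3% higher and 8.46% lower. With no floor, and less the length and GC trend, 2 neighbours were higher, beside 18.4% and 16.4% of all genes. With a pseudocount of 1 or a floor of 5 FPKM, 0 were lower. The lower neighbour, *Scarna13*, has no transcript length here, so it could not be called with either trend removed. Scaling by a common factor shifts all ratios together by construction; other causes were not tested. Of 266 recomputed values and counts, 232 stayed on their side of the rule or within 1.5 times and 34 did not. These counts pool settings that can hardly move abundant genes, such as other pseudocounts, with settings that can. They are therefore no measure of stability. Depth is unknown, which limits most the genes near 1 FPKM.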
